A study of Mus musculus with 30 samples.

Results

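The comparison described here set 3T3-L1 cells given oxidized low density lipoprotein (oxLDL) together with the peptide pNaKtide against untreated control cells, and asked which transcripts remained shifted or passed beyond the control level when the peptide was present. Its libraries were taken by their labels: the 5 libraries of the oxLDL + pNaKtide group and the 5 Control libraries, 10 of the 30 libraries of the series. 3T3-L1 is an established mouse preadipocyte line, and all cells had been held for 5 days in adipogenic medium with insulin, dexamethasone, isobutylmethylxanthine and indomethacin. Treated cells received oxLDL at 50 µg/mL and pNaKtide at 0.7 µM, and Control cells received neither. The groups given oxLDL alone (50 µg/mL) and pNaKtide alone (0.7 µM), 5 libraries each, are used for reference, and the remaining 10 libraries, of cells given indoxyl sulphate without or with pNaKtide, enter the filter on low counts, the normalization and the shared estimate of the spread but no comparison. The labels give 5 days of treatment and the methods of the study give 2 days at intervals of 24 h. The labels name 3T3 cells as the source, whereas the extraction protocol speaks of adipose tissue. They are treated here as cultured cells. All libraries come from 1 cell line, and nothing in the labels says that the 5 libraries of a group came from separate cultures, so a p-value measures only the spread between these libraries.

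Oxidized LDL is taken up by cells through scavenger receptors and is known as a source of oxidant stress. The Na/K-ATPase, the pump that exchanges sodium for potassium across the plasma membrane, also holds the kinase Src in a signaling complex, and pNaKtide is a cell-permeant peptide made to block the activation of Src by the pump. Adipocytes store triglyceride in lipid droplets, secrete hormones such as adiponectin, and keep a collagen-rich matrix around them. Bulk RNA sequencing gives 1 value per gene per library, so fewer cells of a type and less RNA per cell cannot be told apart.

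The libraries held between 6945498 and 11534363 counted reads in the oxLDL + pNaKtide group and between 10104438 and 13219298 in the Control group. Values below are TMM-normalized CPM (read counts scaled to a common library size) in replicates 1 to 5 in that order, and fold changes are log2 values with a standard error (SE). A gene was called at a BH-adjusted p-value under 0.1 in edgeR's quasi-likelihood test over 20139 genes. The 12 adipocyte markers summed to between 12000 and 14500 CPM with oxLDL + pNaKtide and between 9700 and 13400 CPM in Control, none of them at 0. The 12 macrophage markers summed to between 9.84 and 13.7 CPM against between 8.29 and 14.6 CPM, with 5 and 4 of them at 0 in the respective groups. The 8 endothelial markers summed to between 0.166 and 0.711 CPM against between 0.473 and 0.739 CPM, with 3 at 0 in each group, and the 8 skeletal muscle markers lay between 22.8 and 41.2 CPM against between 14.7 and 28.0 CPM, with 4 at 0. No macrophage, endothelial or muscle marker was called.

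Single libraries stood apart in both groups. In replicate 1 of oxLDL + pNaKtide, rRNA and misc_RNA genes took 1.28% of counts, against 0.144% to 0.203% in the 4 other libraries of that group and 0.0918% to 0.145% in Control. Replicate 4 of oxLDL + pNaKtide was the smallest library and had the steepest trend over GC content, 0.571 log2 units per 10% GC, where the others of its group lay between 0.06 and 0.341 and the Control libraries between -0.147 and 0.308. Control replicate 1 scored 25.8 on the first principal component, while the other Control libraries lay between -29.9 and -6.47, all oxLDL + pNaKtide libraries between -67.5 and -14.5 and the oxLDL libraries between 14.7 and 41.9. Control replicate 1 thus sat inside the range of the oxLDL libraries on that component. Results that rest on these libraries are given with and without them.

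**Figure D1:**
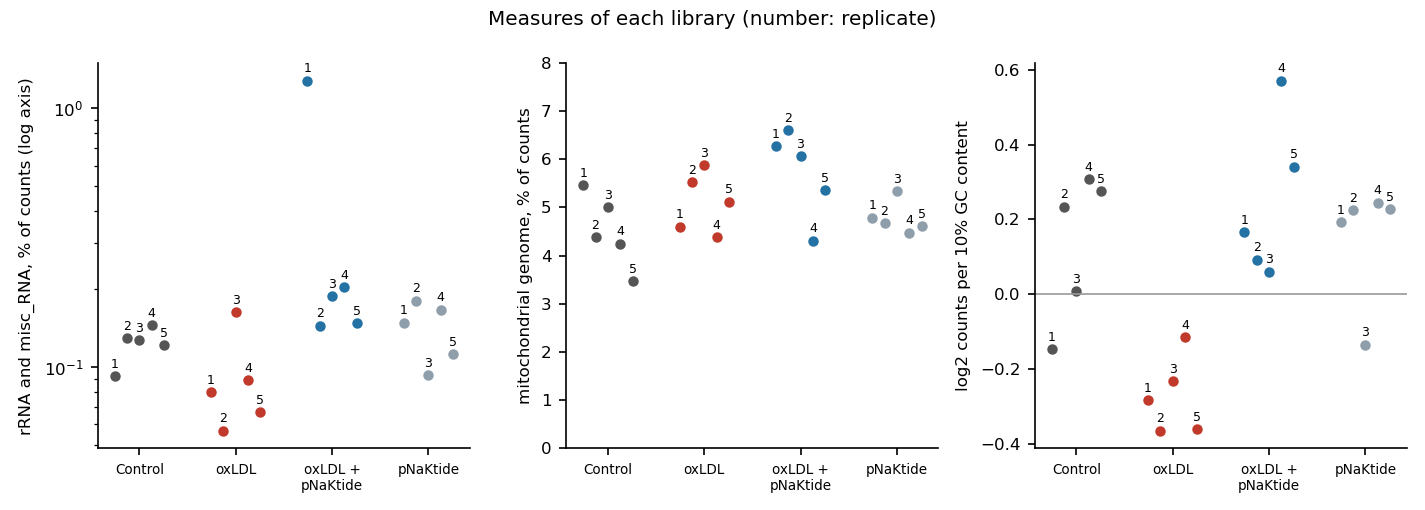
Each point is 1 library and its number the replicate, for the Control, oxLDL, oxLDL + pNaKtide and pNaKtide groups. The left panel shows the percentage of counts on rRNA and misc_RNA genes on a log axis, the middle panel the percentage on the mitochondrial genome, and the right panel the slope of log2 counts per 10% GC content. Replicate 1 of oxLDL + pNaKtide lies at 1.28% on the left, and its replicate 4 at 0.571 on the right.

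Cells given oxLDL + pNaKtide differed from Control in 1047 genes. Expression was higher in 410 genes, 2.04% of those tested, and lower in 637, 3.16% of those tested. The changes were small, with a median size of 0.42 log2 units among called genes and with 89 genes past a 2-fold change, 59 higher and 30 lower. The median over all genes was -0.03. Of all genes tested, 812 (4.03%) did not overlap between the groups, and 568 of these were among the 1047 called. By comparison, oxLDL alone raised 3637 genes (18.1%) and lowered 3622 (18%) against the same Control libraries, and pNaKtide alone left 1 gene called, Clca3a1. Against oxLDL alone, oxLDL + pNaKtide was higher in 4458 genes (22.1%) and lower in 5264 (26.1%).

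The size of this gene set depended on how the spread was estimated. With the 10 libraries fitted alone, 11 genes passed and 2530 had an unadjusted p under 0.05, and in the fit of all 30 libraries 3468 had an unadjusted p under 0.05. The count fell to 606 without Control replicate 3, 683 without Control replicate 5 and 505 without oxLDL + pNaKtide replicate 4, and to 528 without both replicates numbered 1. More genes were called lower than higher as reported, but not under DESeq2 (937 higher and 884 lower), with edgeR's own expression filter (806 and 726), in limma on log2(FPKM + 1) (838 and 793), with the trends of the libraries over GC content and gene length removed (1035 and 888), after thinning to the smallest library (529 and 456) or without oxLDL + pNaKtide replicate 2 (676 and 624). With scaling by library size alone, 382 genes were higher and 1586 lower and the median over all genes was -0.12. In all fits run, each gene called that was also among the 1047 had the same sign. Called results named below were called in the fit of all 30 libraries. Of the genes taken by the naming rule, Col4a5 and Gm4631 also passed in the 10 libraries alone. Genes named for other reasons were not looked up in that fit.

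The called genes were sorted by what oxLDL alone did to them, as a description, since both comparisons use the same Control libraries. Retained genes, called in both comparisons in the same direction, numbered 68 (20 higher and 48 lower), which is 6.49% of the genes called with oxLDL + pNaKtide and 0.937% of those called with oxLDL. Overshot genes, called in both comparisons in opposite directions, numbered 307 (144 higher and 163 lower), 29.3% and 4.23% of the respective sets. A further 631 genes, called new below (232 higher and 399 lower), were not called with oxLDL alone and differed from oxLDL in the direction in which they differed from Control, and 41 could not be placed. For scale, 5875 genes, 80.9% of those called with oxLDL, differed from oxLDL in the opposite direction and were not called against Control. This number was 2875 with the trends over GC content and length removed, of which 1938 were among the 5875, and lay between 4134 and 7294 with single libraries left out. Groups did not overlap for 27 retained, 158 overshot and 366 newly differing genes. The class counts moved with single libraries: without Control replicate 1 there were 178 retained and 100 overshot genes, and without oxLDL + pNaKtide replicate 4 there were 53 and 67. Retained genes numbered 24 without Control replicate 5 and between 40 and 43 without Control replicate 2, 3 or 4 or oxLDL + pNaKtide replicate 1. Overshot genes numbered 200, 98 and 124 without Control replicates 2, 3 and 5, and 485, 464 and 150 without oxLDL + pNaKtide replicates 2, 3 and 5. New genes numbered 365 without oxLDL + pNaKtide replicate 4.

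Tested against pNaKtide alone, with which it shares the peptide, the oxLDL + pNaKtide group differed in 5 genes at the threshold, named here after their values were seen. Lss (-0.47, SE 0.09, BH-adjusted p = 0.082), Iigp1 (-1.34, SE 0.27, BH-adjusted p = 0.0992), Gm10356 (-1.17, SE 0.22, BH-adjusted p = 0.082) and Gm9256 (-1.18, SE 0.24, BH-adjusted p = 0.0992) were lower, and Gm49172 (0.91, SE 0.18, BH-adjusted p = 0.0992) was higher. In that comparison 1363 genes had an unadjusted p under 0.05, and 1233 did for pNaKtide alone against Control. Clca3a1 changed by -0.61 (SE 0.11, BH-adjusted p = 0.0814) with pNaKtide alone and -0.75 (SE 0.11, BH-adjusted p = 0.000586) with oxLDL + pNaKtide.

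**Figure D2:**
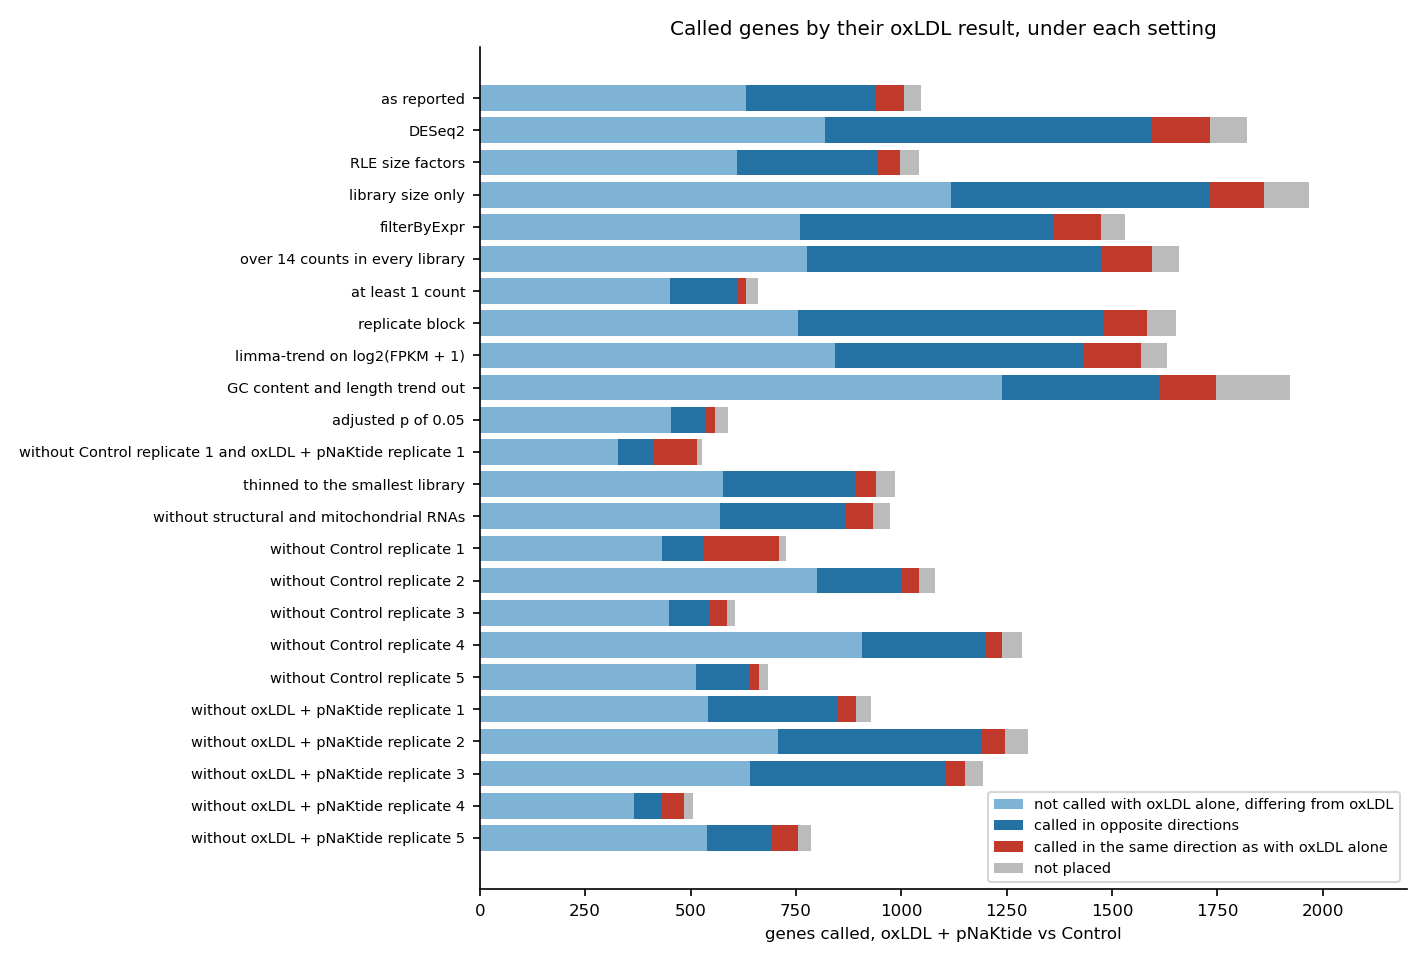
Bars give the number of genes called between oxLDL + pNaKtide and Control under each setting, divided by the result of the same gene with oxLDL alone. The total was 1047 as reported and ranged from 505 to 1968 over the settings drawn, and the fit of the 10 libraries alone (11 genes) has no class counts and is not drawn.

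The genes with the largest changes, and with the largest in each class, were named only where the groups did not overlap. For these genes the lack of overlap follows from that choice. Among the largest decreases were genes that oxLDL alone had raised. Angpt1 encodes angiopoietin-1, a secreted ligand of the endothelial Tie2 receptor, and lies at chr15:42424723-42676977 (GRCm38). It measured 94.9, 62.4, 80.4, 60.5 and 65.3 CPM in Control, 122, 146, 109, 103 and 139 CPM with oxLDL and 46.2, 47.8, 46.6, 23.3 and 36.4 CPM with oxLDL + pNaKtide. Every oxLDL + pNaKtide library lay below every Control library, and every oxLDL library lay above. The change from Control was -0.85 (SE 0.19, BH-adjusted p = 0.0125) with the peptide and 0.77 (SE 0.18, BH-adjusted p = 0.00824) without it. Gulp1, an adaptor protein in the engulfment of dying cells at chr1:44551511-44796838, measured 20.1, 10.8, 12.9, 10.8 and 14.6 CPM in Control and 8.11, 9.71, 6.04, 6.46 and 6.54 CPM with oxLDL + pNaKtide, again without overlap (-0.91, SE 0.18, BH-adjusted p = 0.00608), against 21.9, 28.3, 22.6, 19.8 and 21.5 CPM with oxLDL alone (0.72, SE 0.17, BH-adjusted p = 0.00783). Gm4951, a gene of the interferon-induced GTPase family, changed by -1.09 (SE 0.28, BH-adjusted p = 0.0292), and this call was lost without Control replicate 1 (BH-adjusted p = 0.129). The other overshot decreases under the naming rule were Med18 and Gm14419, each called in only 5 of the 10 fits that leave out 1 library.

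Other large decreases concerned genes that oxLDL alone had not changed past the threshold. Slc8a1, the plasma membrane sodium-calcium exchanger, measured 5.99, 4.5, 3.63, 4.96 and 3.97 CPM in Control and 3.01, 2.95, 1.42, 1.99 and 2.42 CPM with oxLDL + pNaKtide, a change of -0.97 (SE 0.19, BH-adjusted p = 0.00571). All 5 treated libraries lay below all 5 Control libraries. Col4a5, a chain of basement membrane collagen IV at chrX:141475385-141689234, measured 109, 81.6, 86.6, 75.8 and 95.4 CPM in Control, 112, 103, 79.4, 96.7 and 107 CPM with oxLDL and 51.9, 58.7, 49.9, 38.9 and 56.4 CPM with oxLDL + pNaKtide. The groups did not overlap, and the change was -0.81 (SE 0.13, BH-adjusted p = 0.000868), also past the threshold in the 10 libraries alone. Mamdc2, Clca3a2, Fut10 and Gm4631 fell by 0.97, 0.85, 0.82 and 1.03 log2 units, without overlap and with calls kept in all 10 fits that leave out 1 library. The smallest adjusted p over all genes belonged to Thbd, the anticoagulant cell surface receptor thrombomodulin, and to Atp8b2, a phospholipid flippase, both singled out after their values were seen. Thbd changed by -0.74 (SE 0.09, BH-adjusted p = 4.16e-05) and Atp8b2 by -0.70 (SE 0.09, BH-adjusted p = 4.16e-05), with 0.04 and 0.02 for oxLDL alone. With pNaKtide alone, compared with the same Control libraries, Thbd, Atp8b2 and Col4a5 also lay lower, by 0.39, 0.34 and 0.43. None of them was called there (BH-adjusted p = 0.322, 0.426 and 0.515).

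**Figure D3:**
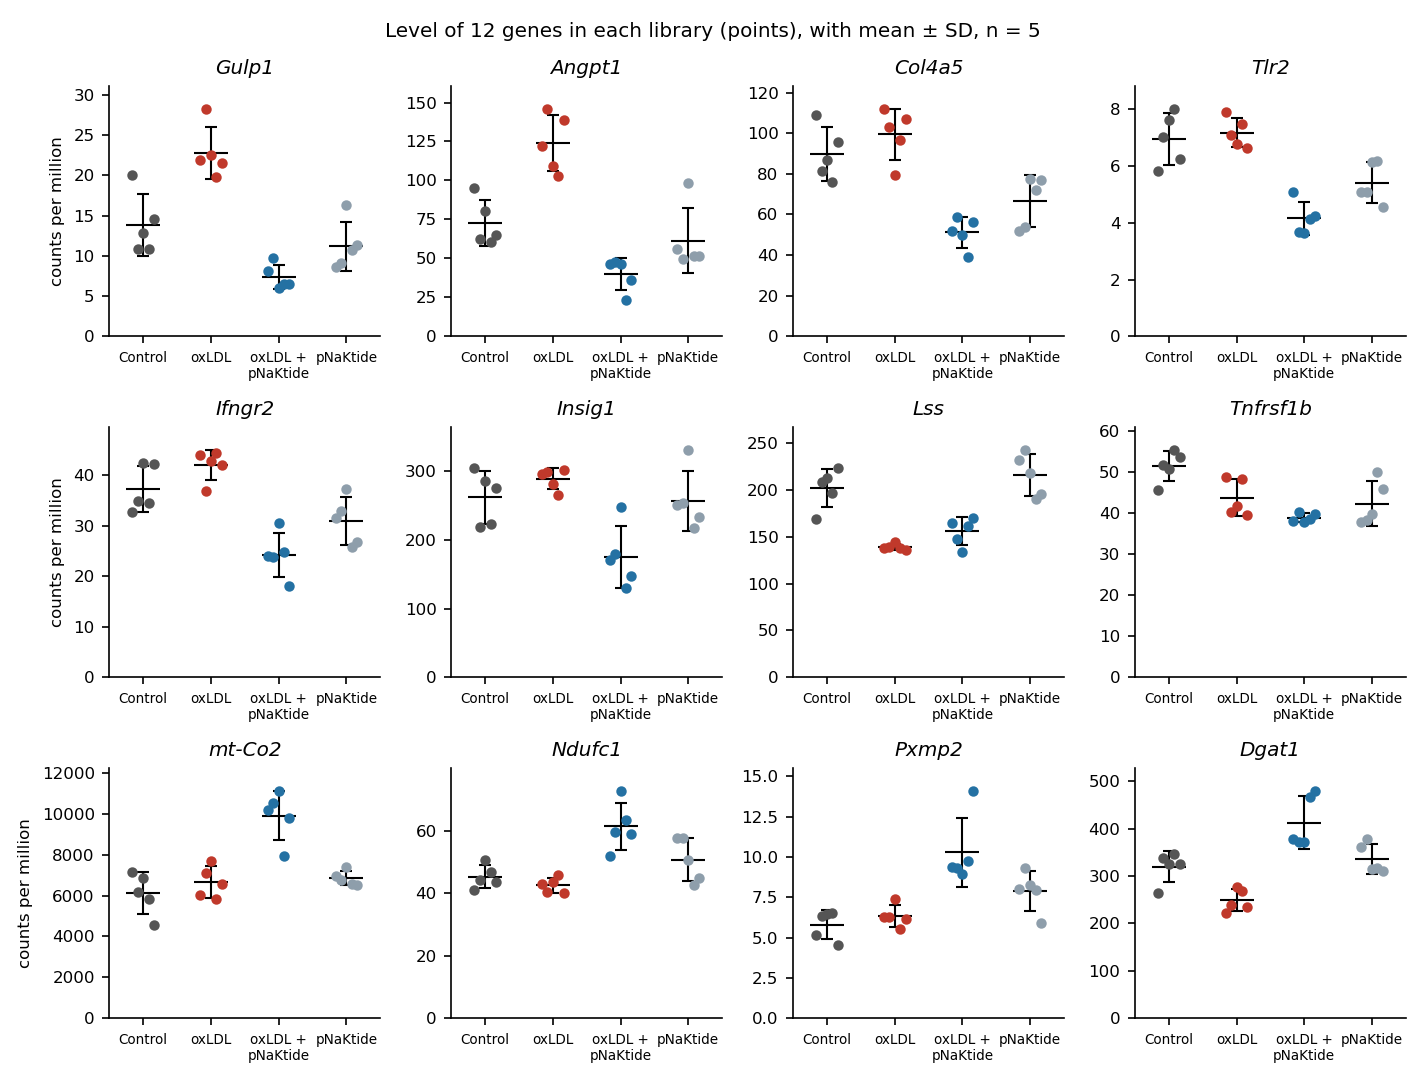
Points are the CPM of 12 genes in each of the 5 libraries of the Control, oxLDL, oxLDL + pNaKtide and pNaKtide groups, with the mean and SD as a bar (each vertical axis starts at 0). In their means, Gulp1 and Angpt1 lie above Control with oxLDL and below it with oxLDL + pNaKtide, Lss and Tnfrsf1b lie below Control in both, mt-Co2, Ndufc1 and Pxmp2 lie above Control with oxLDL + pNaKtide, and Dgat1 lies below Control with oxLDL and above it with oxLDL + pNaKtide.

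Genes of the extracellular matrix were called lower more often than higher. In the list of 41 matrix remodelling genes, 7 were called lower and 0 higher, with a median of -0.32 over all 41 members, where 3.16% of all genes were called lower. They included the cross-linking enzymes Lox and Loxl3, the secreted proteases Adamts1 and Mmp11, and the matrix glycoproteins Thbs2, Fbln2 and Postn. Lox, which cross-links collagen and elastin, measured 241, 185, 184, 185 and 169 CPM in Control, 257, 252, 187, 233 and 237 CPM with oxLDL and 146, 163, 125, 110 and 141 CPM with oxLDL + pNaKtide (-0.49, SE 0.11, BH-adjusted p = 0.0141). The highest treated library, 163 CPM, lay below the lowest Control library, 169 CPM. Adamts1 measured 355, 249, 242, 269 and 250 CPM in Control and 207, 225, 174, 180 and 214 CPM with oxLDL + pNaKtide (-0.45, SE 0.12, BH-adjusted p = 0.0361), a call lost without Control replicate 1 (BH-adjusted p = 0.131) or oxLDL + pNaKtide replicate 4 (BH-adjusted p = 0.123). Loxl3 fell by 0.53, a call lost without oxLDL + pNaKtide replicate 5 (BH-adjusted p = 0.102). Between 4 and 9 members were called lower when single libraries were left out, and 2 without both replicates numbered 1. Leaving out oxLDL + pNaKtide replicate 4 or replicate 5 gave 4. DESeq2 called 10 lower, and scaling by library size alone 13. With pNaKtide alone, compared with the same Control libraries, 0 were called and 2 of the 41 had a positive log2 difference (median -0.20).

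Of 32 collagen genes, 3 were called lower and 1 higher, where 3.16% and 2.04% of all genes were. Besides Col4a5, the fibrillar chain Col5a2 fell by 0.42 without overlap, from 642, 633, 609, 650 and 638 CPM in Control to 473, 498, 446, 470 and 491 CPM. Col12a1, a fibril-associated collagen, measured 49.6, 31.8, 33.3, 34.7 and 30 CPM in Control and 18.1, 24.9, 18, 17.5 and 23.8 CPM with oxLDL + pNaKtide, with Control replicate 1 apart from the others. Its call (-0.81, SE 0.21, BH-adjusted p = 0.0292) was lost without Control replicate 1 (BH-adjusted p = 0.105) or oxLDL + pNaKtide replicate 4 (BH-adjusted p = 0.101). Col7a1, the anchoring fibril collagen, was the member called higher, with 3.36, 1.26, 1.53, 1.9 and 1.13 CPM in Control, 3.39, 3.81, 2.72, 2.26 and 3.81 CPM with oxLDL and 3.24, 3.9, 4.8, 3.15 and 2.92 CPM with oxLDL + pNaKtide. Control replicate 1 overlapped the treated libraries, and the change of 0.97 (SE 0.28, BH-adjusted p = 0.0483) was lost without Control replicate 2 (BH-adjusted p = 0.11), Control replicate 3 (BH-adjusted p = 0.122), Control replicate 5 (BH-adjusted p = 0.128) or oxLDL + pNaKtide replicate 3 (BH-adjusted p = 0.122). Laminins and integrins (30 tested) had 1 gene called lower, the integrin chain Itgav, and the 16 small leucine-rich proteoglycans had none called (median -0.2). Itgav fell by 0.60, a call lost without Control replicate 1 (BH-adjusted p = 0.128) or oxLDL + pNaKtide replicate 4 (BH-adjusted p = 0.148).

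Some receptors and transducers of innate and cytokine signaling were called lower. Of 34 genes of TLR4 and NF-κB signaling, 5 were called lower and 0 higher (median -0.16), and of 33 JAK-STAT and interferon genes, 5 lower and 0 higher (median -0.29). Of all genes, 3.16% were called lower. Tlr2, a receptor for bacterial lipoproteins at chr3:83836272-83841767, measured 5.83, 7.03, 7.64, 8.02 and 6.24 CPM in Control, 7.9, 7.08, 6.79, 7.49 and 6.62 CPM with oxLDL and 5.1, 3.69, 3.64, 4.14 and 4.23 CPM with oxLDL + pNaKtide. No treated library reached the lowest Control value of 5.83 CPM, and the change was -0.74 (SE 0.14, BH-adjusted p = 0.00431). Ifngr2, the signaling chain of the interferon-γ receptor at chr16:91547072-91565623, went from 32.7, 34.9, 42.3, 34.5 and 42.2 CPM in Control to 23.9, 23.7, 30.6, 24.7 and 18.1 CPM (-0.62, SE 0.12, BH-adjusted p = 0.00431), again without overlap. Nfkb1, which encodes the p105 and p50 subunits, changed by -0.46 (SE 0.09, BH-adjusted p = 0.00655), and Stat3, the transcription factor of the IL-6 family receptors, by -0.30 (SE 0.07, BH-adjusted p = 0.0186), both without overlap. The kinase Irak2 fell by 0.46, a call lost without Control replicate 3 (BH-adjusted p = 0.101) or Control replicate 5 (BH-adjusted p = 0.107). Vcam1, Ikbkg, Osmr, Ifnar1 and Jak1 made up the rest of both sets, with changes between -0.53 and -0.25. In the fits that leave out 1 library, 3 to 6 genes of the first list and 4 to 7 of the second were called lower. For the first list, leaving out Control replicate 3, Control replicate 5, oxLDL + pNaKtide replicate 4 or oxLDL + pNaKtide replicate 5 gave 3. With the GC and length trends removed the first list had 3 genes called lower and 1 higher (median -0.04) and the second 5 and 1 (median -0.20). Without Control replicate 1 the medians were -0.09 and -0.16, and without oxLDL + pNaKtide replicate 4 that of the first list was -0.06. No member of either list was called with pNaKtide alone.

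Growth factor signaling showed the same direction in the members called. In the list for transforming growth factor β (TGF-β) and bone morphogenetic protein (BMP), 4 of 32 genes were called lower and 0 higher (median -0.17), among them the BMP receptor kinase Acvr1, the TGF-β receptor Tgfbr2 and the transducer Smad1. Acvr1 measured 33.7, 30.1, 28.9, 31.7 and 30.4 CPM in Control and 22.7, 24.1, 21.5, 21.9 and 23 CPM with oxLDL + pNaKtide (-0.45, SE 0.09, BH-adjusted p = 0.00431), without overlap. With the GC and length trends removed the list had 3 genes called lower and 1 higher, and its median was -0.06. Of 26 receptor tyrosine kinases, 5 were called lower and 0 higher (median -0.23), namely Epha2, Tyro3, Fgfr3, Flt1 and Erbb2. Of all genes, 3.16% were called lower. With pNaKtide alone, which shares the Control libraries, 0 of the 26 were called and 4 had a positive log2 difference (median -0.18), and the TGF-β and BMP list had 0 called and a median of -0.14. Tyro3 fell by 0.56, with its call kept in all 10 fits that leave out 1 library. The call of Flt1 (-0.43, SE 0.12, BH-adjusted p = 0.0422) was lost without Control replicate 3 (BH-adjusted p = 0.106), oxLDL + pNaKtide replicate 1 (BH-adjusted p = 0.103) or oxLDL + pNaKtide replicate 4 (BH-adjusted p = 0.114), and that of Erbb2 (-0.36, SE 0.1, BH-adjusted p = 0.0519) without Control replicate 5 (BH-adjusted p = 0.144), oxLDL + pNaKtide replicate 1 (BH-adjusted p = 0.102), oxLDL + pNaKtide replicate 2 (BH-adjusted p = 0.111) or oxLDL + pNaKtide replicate 3 (BH-adjusted p = 0.107). Leaving out single libraries gave between 2 and 5 receptors called, with 2 without Control replicate 5 or oxLDL + pNaKtide replicate 1, 2 or 4 and 3 without Control replicate 1 or 3 or oxLDL + pNaKtide replicate 5. With the GC and length trends removed 8 were called lower, and with scaling by library size alone 11. Errfi1, a cytoplasmic inhibitor of the EGF receptor and here a member of the glucocorticoid response list, was lower without overlap, at 151, 167, 160, 131 and 128 CPM against 212, 201, 217, 204 and 204 CPM (-0.49, SE 0.09, BH-adjusted p = 0.00281).

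Genes of cholesterol synthesis and of its control by SREBP2 were lower with oxLDL + pNaKtide in 6 of 27 cases and higher in 0, with a median of -0.18, where 3.16% of all genes were called lower. SREBP2 is the membrane-bound factor that is released to the nucleus when sterols are low, and its targets include Insig1, which holds SREBP2 back in the endoplasmic reticulum. Insig1 measured 305, 219, 286, 223 and 276 CPM in Control and 170, 180, 248, 130 and 147 CPM with oxLDL + pNaKtide (-0.58, SE 0.15, BH-adjusted p = 0.0277), with treated replicate 3 inside the Control range. This call was lost without oxLDL + pNaKtide replicate 4 (BH-adjusted p = 0.125). The late enzymes Sc5d and Hsd17b7 changed by -0.53 (SE 0.15, BH-adjusted p = 0.0514) and -0.40 (SE 0.11, BH-adjusted p = 0.0292). With single libraries left out, 2 to 7 members were called lower, with 2 without oxLDL + pNaKtide replicate 4 and 4 without Control replicate 3 or oxLDL + pNaKtide replicate 1. Without both replicates numbered 1, 3 were called, and with scaling by library size alone, 14.

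With oxLDL alone, 16 of the 27 cholesterol genes were called lower and 3 higher (median -0.40). Over all genes 18% were called lower and 18.1% higher with oxLDL. Of the 27, 16 differed from oxLDL in the direction opposite to their oxLDL change and were not called against Control. This held for 5875 of all 20139 genes. Only 2 of the 27 were retained, while 3 were new and 1 was overshot. The retained pair were enzymes that were lower with oxLDL and stayed lower with the peptide. Lss, lanosterol synthase, lies at chr10:76531588-76557138 and measured 169, 209, 213, 197 and 223 CPM in Control, 138, 139, 144, 138 and 136 CPM with oxLDL, 165, 148, 134, 162 and 170 CPM with oxLDL + pNaKtide and 232, 243, 218, 190 and 196 CPM with pNaKtide alone. The oxLDL libraries were all below Control, and of the oxLDL + pNaKtide libraries only replicate 5 reached above the lowest Control value. The changes were -0.54 (SE 0.09, BH-adjusted p = 0.00123) with oxLDL and -0.38 (SE 0.09, BH-adjusted p = 0.013) with oxLDL + pNaKtide, and the latter was not called once the trends over GC content and length were removed (log2 fold change -0.23, BH-adjusted p = 0.363). Cyp51, which demethylates lanosterol, changed by -0.21 (SE 0.09, BH-adjusted p = 0.0723) with oxLDL and -0.32 (SE 0.09, BH-adjusted p = 0.0424) with oxLDL + pNaKtide. Acly, the ATP-citrate lyase that supplies acetyl-CoA for sterols and fatty acids, also stayed lower, at 318, 377, 414, 370 and 445 CPM in Control, 296, 271, 301, 305 and 281 CPM with oxLDL and 323, 298, 227, 280 and 350 CPM with oxLDL + pNaKtide, with changes from Control of -0.40 (SE 0.09, BH-adjusted p = 0.00783) for oxLDL and -0.38 (SE 0.09, BH-adjusted p = 0.0192) for oxLDL + pNaKtide. Replicates 1 and 5 of oxLDL + pNaKtide lay inside the Control range.

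The upstream sequences of these genes are shown because promoters of this pathway are known to carry letters for SREBP and for the CCAAT-binding factor NF-Y. RefSeq windows of 250 bases before the start site (GRCm38.p6) were held for 5 of the 6 genes called lower. Windows were searched on both strands for the sterol regulatory element TCACNCCAC and for CCAAT, letters that can share at most 1 base where they meet. A gene was counted if any of its windows held the letters. CCAAT was found in 5 of these 5 genes and in 18 of the 20 genes with a window among the 27 list members, against 37.5% of 27025 RefSeq genes. TCACNCCAC was found in 0 of the 5, in 1 of the 20 (Hmgcs1, not called here) and in 1.22% of all genes. Matches are letters only and not binding. Below, the stretch before the annotated gene is given 5′ to 3′ with CCAAT, or ATTGG where it lies on the other strand, in capitals, for Insig1 (chr5:28071162-28071362, plus strand), Lss (chr10:76531355-76531587, plus strand) and Hsd17b7 (chr1:169969242-169969455, minus strand).
Insig1: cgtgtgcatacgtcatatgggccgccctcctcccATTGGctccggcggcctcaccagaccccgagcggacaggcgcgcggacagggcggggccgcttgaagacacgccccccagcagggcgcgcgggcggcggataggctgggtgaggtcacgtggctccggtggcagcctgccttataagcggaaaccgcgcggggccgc
Lss: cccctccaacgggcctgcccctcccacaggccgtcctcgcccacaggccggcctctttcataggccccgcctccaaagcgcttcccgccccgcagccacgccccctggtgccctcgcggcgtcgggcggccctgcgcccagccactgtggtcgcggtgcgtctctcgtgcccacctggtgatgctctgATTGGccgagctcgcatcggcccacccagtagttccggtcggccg
Hsd17b7: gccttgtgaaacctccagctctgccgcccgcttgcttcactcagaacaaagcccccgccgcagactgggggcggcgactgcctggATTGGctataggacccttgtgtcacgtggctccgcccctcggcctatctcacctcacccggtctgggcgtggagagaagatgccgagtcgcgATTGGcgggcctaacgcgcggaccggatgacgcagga

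Retained decreases were also found outside the sterol pathway. Tnfrsf1b, the TNF receptor 2, measured 45.7, 51.7, 50.8, 55.4 and 53.7 CPM in Control, 48.7, 40.3, 41.6, 48.4 and 39.5 CPM with oxLDL and 38, 40.2, 37.9, 38.6 and 39.7 CPM with oxLDL + pNaKtide. The oxLDL + pNaKtide libraries lay below all Control libraries and within or below the oxLDL range, with changes from Control of -0.40 (SE 0.1, BH-adjusted p = 0.0171) and, for oxLDL, -0.23 (SE 0.09, BH-adjusted p = 0.061). Olfml2b, a secreted olfactomedin-like protein, changed by -0.47 (SE 0.12, BH-adjusted p = 0.0233) with oxLDL + pNaKtide and -0.27 (SE 0.12, BH-adjusted p = 0.0842) with oxLDL. Tvp23a, a Golgi membrane protein, changed by -0.59 (SE 0.13, BH-adjusted p = 0.0115) with oxLDL + pNaKtide and -0.40 (SE 0.12, BH-adjusted p = 0.0198) with oxLDL, and Poldip3, an RNA-binding partner of the S6 kinase, by -0.38 (SE 0.07, BH-adjusted p = 0.00431) and -0.18 (SE 0.07, BH-adjusted p = 0.0574) in the same order. All 4 genes kept their oxLDL + pNaKtide calls in the 10 fits that leave out 1 library. Nptxr, the remaining gene under the naming rule, was called in 5 of those fits. Retained genes share the Control libraries on both sides, so a Control library that stands apart moves both changes.

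Retained increases included components of mitochondrial metabolism. Ndufab1, the mitochondrial acyl carrier protein and a subunit of complex I, measured 72.5, 72.6, 81.8, 72.8 and 73.3 CPM in Control, 88.7, 82.6, 87.3, 86.6 and 88.5 CPM with oxLDL and 94.7, 94.9, 113, 88.2 and 95.1 CPM with oxLDL + pNaKtide, with changes from Control of 0.22 (SE 0.08, BH-adjusted p = 0.0335) for oxLDL and 0.38 (SE 0.08, BH-adjusted p = 0.00571) for oxLDL + pNaKtide. Mpc2, a subunit of the mitochondrial pyruvate carrier, measured 144, 133, 141, 133 and 144 CPM in Control, 141, 173, 167, 153 and 168 CPM with oxLDL and 172, 173, 231, 183 and 176 CPM with oxLDL + pNaKtide, with changes from Control of 0.21 (SE 0.09, BH-adjusted p = 0.0853) for oxLDL and 0.43 (SE 0.09, BH-adjusted p = 0.00852) for oxLDL + pNaKtide. In both genes treated replicate 3 was highest, and no treated library overlapped Control. Hnrnpa0, an RNA-binding protein of the hnRNP family, changed by 0.46 (SE 0.09, BH-adjusted p = 0.00431) with oxLDL + pNaKtide, and the antisense transcript 4631405J19Rik by 1.20 (SE 0.22, BH-adjusted p = 0.00389). For these 4 genes the level with oxLDL + pNaKtide was also called above that with oxLDL, with BH-adjusted p between 0.0243 and 0.0799. Pard6b, a cell polarity protein, changed by 0.67 (SE 0.2, BH-adjusted p = 0.0636), a call lost without Control replicate 3 (BH-adjusted p = 0.166), Control replicate 4 (BH-adjusted p = 0.111), oxLDL + pNaKtide replicate 3 (BH-adjusted p = 0.163) or oxLDL + pNaKtide replicate 5 (BH-adjusted p = 0.121).

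Most transcripts of the mitochondrial genome were called higher. Of 15 tested, 9 were called higher and 0 lower, with a median of 0.55 against 0.1 for oxLDL alone, where 2 were called. Over all genes the share called higher was 2.04%, and 18.1% with oxLDL alone. The genome encodes subunits of complexes I, III, IV and V and 2 ribosomal RNAs. mt-Co2, a subunit of cytochrome c oxidase at chrM:7013-7696, measured 7140, 6180, 6850, 5850 and 4570 CPM in Control, 6050, 7100, 7710, 5840 and 6570 CPM with oxLDL, 10200, 10500, 11100, 7920 and 9800 CPM with oxLDL + pNaKtide and 6950, 6780, 7380, 6570 and 6530 CPM with pNaKtide alone. The lowest oxLDL + pNaKtide library, replicate 4, lay above the highest Control library, and the change was 0.70 (SE 0.13, BH-adjusted p = 0.00311). mt-Nd6, the subunit encoded on the opposite strand, measured 645, 465, 478, 469 and 342 CPM in Control and 800, 823, 838, 722 and 679 CPM with oxLDL + pNaKtide (0.69, SE 0.12, BH-adjusted p = 0.00301), also without overlap. mt-Rnr1, the 12S ribosomal RNA, was highest in treated replicate 1 at 1310 CPM, and its change of 0.75 became 0.51 (BH-adjusted p = 0.0252) without that library. The other 6 called were mt-Nd1, mt-Nd2, mt-Nd4, mt-Nd5, mt-Co1 and mt-Cytb, with changes between 0.35 and 0.59.

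The share of counts on the mitochondrial genome was 4.31% to 6.61% with oxLDL + pNaKtide and 3.47% to 5.46% in Control, so the groups overlapped in the share, while 4 of the 15 transcripts did not overlap, against 4.03% of all genes. Between 7 and 11 of the 15 were called when single libraries were left out, 8 without both replicates numbered 1, and 9 with the trends over GC content and length removed (median 0.65). Nuclear copies of mitochondrial sequence can share such reads, and how these reads were counted is not given in the sources used here. None of the 15 was called with pNaKtide alone (median 0.17).

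Some nuclear genes of the respiratory complexes were called higher, too. Of 75 tested, 21 were called higher and 0 lower, the called genes being 12 of complex I and 9 of complexes II to V, and 69 of the 75 had a positive log2 difference (median 0.27). For comparison, 2.04% of all genes were called higher. With oxLDL alone, 42 of the 75 were called lower and 4 higher (median -0.28). With pNaKtide alone, compared with the same Control libraries, 0 were called and 70 of the 75 had a positive log2 difference (median 0.16). Of the 21, 10 were overshot, 9 newly differed, 1 was retained and 1 could not be placed. Ndufb6, an accessory subunit of complex I, measured 55.9, 60.8, 62.9, 61.9 and 58.4 CPM in Control, 55, 63.9, 60.9, 64.3 and 61.1 CPM with oxLDL and 75.6, 76.6, 81.7, 77.8 and 76.8 CPM with oxLDL + pNaKtide. The ranges of Control and oxLDL overlapped, and all 5 oxLDL + pNaKtide libraries lay above both (0.37, SE 0.08, BH-adjusted p = 0.00853). Ndufc1, another subunit of complex I, measured 40.9, 44.3, 50.6, 46.6 and 43.6 CPM in Control and 52, 59.5, 72.7, 63.4 and 58.8 CPM with oxLDL + pNaKtide (0.44, SE 0.1, BH-adjusted p = 0.012). Atp5o, a subunit of the ATP synthase, measured 207, 315, 290, 334 and 301 CPM in Control, 196, 174, 233, 231 and 178 CPM with oxLDL and 383, 369, 341, 569 and 453 CPM with oxLDL + pNaKtide (0.55, SE 0.15, BH-adjusted p = 0.045), a call lost without Control replicate 1 (BH-adjusted p = 0.13) or oxLDL + pNaKtide replicate 4 (BH-adjusted p = 0.16). The number called ranged from 10 without oxLDL + pNaKtide replicate 4 and 11 without Control replicate 1 to 31, and was 9 without both replicates numbered 1, and the medians over single libraries left out ranged from 0.17, without Control replicate 1, to 0.32. With the GC and length trends removed 26 were called and the median was 0.17, and DESeq2 called 33. The 16 regulators of mitochondrial biogenesis and thermogenesis had none called (median 0.01).

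Most cytosolic ribosomal protein genes were called lower with oxLDL alone, and those called with oxLDL + pNaKtide were higher. With oxLDL alone 65 of 79 were called lower and 0 higher (median -0.44), and with oxLDL + pNaKtide 9 of 79 were called higher and 0 lower (median 0.32), where 73 of the 79 had a positive log2 difference. Over all genes 18% were called lower with oxLDL and 2.04% higher with oxLDL + pNaKtide. With pNaKtide alone, compared with the same Control libraries, 0 were called and 73 of the 79 also had a positive log2 difference (median 0.18). Against oxLDL, 76 of the 79 were called higher. Rps12, of the small subunit, measured 63.6, 66.9, 60.5, 74.7 and 62 CPM in Control, 61.8, 57.7, 55.5, 70.6 and 59.3 CPM with oxLDL and 85, 87.6, 86.6, 122 and 80.6 CPM with oxLDL + pNaKtide (0.49, SE 0.12, BH-adjusted p = 0.0186). Rps13, also of the small subunit, measured 148, 224, 204, 222 and 185 CPM in Control, 160, 124, 169, 174 and 138 CPM with oxLDL and 251, 253, 268, 369 and 284 CPM with oxLDL + pNaKtide (0.54, SE 0.14, BH-adjusted p = 0.0263). In both genes treated replicate 4 was far above the 4 others of its group. Rpl6, of the large subunit, changed by 0.41 (SE 0.12, BH-adjusted p = 0.0545), a call lost without Control replicate 1 (BH-adjusted p = 0.134), Control replicate 3 (BH-adjusted p = 0.14), Control replicate 5 (BH-adjusted p = 0.11) or oxLDL + pNaKtide replicate 4 (BH-adjusted p = 0.175). Only 2 of the 79 were called without oxLDL + pNaKtide replicate 4, and likewise without Control replicate 1, 3 or 5. By contrast, 25 were called without Control replicate 4, 17 without Control replicate 2, 18 and 21 without oxLDL + pNaKtide replicates 1 and 2, 27 with the trends over GC content and length removed (median 0.21), and 35 with DESeq2. Ribosomal protein genes have many processed pseudogenes, and reads may be split among the copies.

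Few adipocyte genes were called, a count that was higher under some other settings. Over all genes 2.04% were called higher and 3.16% lower. Of the 12 adipocyte markers, 1 was called higher, the hormone Retn (resistin), and 11 had a positive log2 difference (median 0.24, against -0.19 with oxLDL alone). Retn measured 127, 157, 173, 163 and 185 CPM in Control, 109, 138, 152, 140 and 135 CPM with oxLDL and 211, 176, 219, 240 and 256 CPM with oxLDL + pNaKtide (0.45, SE 0.14, BH-adjusted p = 0.0609), a call lost without Control replicate 1 (BH-adjusted p = 0.158), oxLDL + pNaKtide replicate 4 (BH-adjusted p = 0.13) or oxLDL + pNaKtide replicate 5 (BH-adjusted p = 0.13). Among 22 genes of the lipid droplet and lipolysis, Bscl2, which encodes the droplet protein seipin, and Aqp7, the glycerol channel, were called higher (0.45, SE 0.12, BH-adjusted p = 0.0406, and 0.47, SE 0.13, BH-adjusted p = 0.0371). These calls were lost, for Bscl2, without Control replicate 1 (BH-adjusted p = 0.127) and, for Aqp7, without oxLDL + pNaKtide replicate 5 (BH-adjusted p = 0.119). In 29 genes of fatty acid uptake and triglyceride synthesis, Dgat1 and Pck1 were called higher and Acly lower. Dgat1, which completes triglyceride synthesis, measured 265, 338, 325, 347 and 325 CPM in Control, 223, 240, 277, 268 and 235 CPM with oxLDL and 378, 371, 371, 466 and 480 CPM with oxLDL + pNaKtide, a rise past Control of 0.37 (SE 0.1, BH-adjusted p = 0.0361). The call was lost without Control replicate 1 (BH-adjusted p = 0.106), the lowest Control library. Pck1, a source of glycerol 3-phosphate in fat cells, changed by 0.38 (SE 0.1, BH-adjusted p = 0.0233). DESeq2 called 4 adipocyte markers, 6 genes of the lipid droplet and lipolysis and 7 of fatty acid uptake and triglyceride synthesis higher, and the fit with the GC and length trends removed called 3, 7 and 7. Without oxLDL + pNaKtide replicate 2, 6 genes of the last list were called higher. Pxmp2, a channel of the peroxisomal membrane outside the lists, was among the largest increases, at 5.17, 6.32, 6.49, 6.54 and 4.54 CPM in Control and 9.38, 9.29, 8.97, 9.77 and 14.1 CPM with oxLDL + pNaKtide (0.83, SE 0.15, BH-adjusted p = 0.0032). Gm21887 on chromosome X and Gm47283 on chromosome Y were higher by 0.94 and 0.93, and whether these predicted genes share reads with each other was not tested.

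The genes fixed by name gave no call. None of the 17 tested, which include Adipoq, Fabp4, Lpl, Plin1, Pparg, Cebpa and Lep of the adipocyte and Src, Tlr4, Ccl2, Cd36, Creb1, Chuk, Nos3 and Prkca, passed against Control. Ccl2, the monocyte chemokine MCP-1, measured 1.15, 1.74, 1.34, 1.16 and 1.04 CPM in Control, 2.12, 1.77, 2.1, 1.69 and 2.21 CPM with oxLDL and 0.579, 0.211, 0.888, 0.828 and 1.61 CPM with oxLDL + pNaKtide. The libraries of Control and oxLDL + pNaKtide overlapped, with a difference of -0.63 (SE 0.33, BH-adjusted p = 0.341). Adipoq, adiponectin, differed by 0.25 (SE 0.12, BH-adjusted p = 0.306), and Fabp4, the fatty acid binding protein of adipocytes, by 0.21 (SE 0.1, BH-adjusted p = 0.27) with groups that did not overlap. Fabp4 was called in 2 of 14 alternative settings, with the GC and length trends removed among them (0.39, BH-adjusted p = 0.0297). Nos3, the endothelial nitric oxide synthase, differed by 1.11 (SE 0.4, BH-adjusted p = 0.126) and was called in 3 of the 10 fits that leave out 1 library. Tnf and Il1b had 3 counts each over all 30 libraries and were not tested. Il6 had 2 counts in the Control group and 1 with oxLDL + pNaKtide, and no difference was detectable at this depth.

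For the Na/K-ATPase, none of the 3 β subunit genes (median 0.20) and none of the 4 genes of its FXYD regulators (median 0.08) tested was called. Among 16 genes of the Src family and caveolae, only the Src-related kinase Frk was called, lower by 0.66 and with its call kept in 4 of the 10 fits that leave out 1 library. The 13 genes of the liver X receptor and cholesterol efflux (median 0.08) and the 18 of insulin signaling and glucose transport (median -0.02) had none called. Of 16 scavenger and lipoprotein receptors, Scara5 and Vldlr were called lower, against 3.16% of all genes. Scara5, a ferritin receptor, measured 383, 345, 355, 341 and 354 CPM in Control and 290, 306, 274, 248 and 281 CPM with oxLDL + pNaKtide (-0.35, SE 0.08, BH-adjusted p = 0.0133), without overlap. The VLDL receptor gene Vldlr fell by 0.38, a call lost without Control replicate 1 (BH-adjusted p = 0.1) or oxLDL + pNaKtide replicate 4 (BH-adjusted p = 0.17), and its change was -0.18 (BH-adjusted p = 0.18) with the GC and length trends removed.

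Antioxidant genes were called in both directions. Of 39 genes, 3 were called higher and 4 lower (median 0.09), where 2.04% of all genes were called higher and 3.16% lower. Txn1, the small redox protein thioredoxin, measured 126, 139, 138, 145 and 132 CPM in Control and 161, 161, 172, 192 and 157 CPM with oxLDL + pNaKtide (0.31, SE 0.07, BH-adjusted p = 0.0171), without overlap. Gsta4, a glutathione transferase that clears lipid aldehydes, rose by 0.52, a call lost without oxLDL + pNaKtide replicate 4 (BH-adjusted p = 0.123), and Ftl1, the ferritin light chain, changed by 0.52 (SE 0.16, BH-adjusted p = 0.0664), a call kept in 5 of the 10 fits that leave out 1 library. The genes called lower were Nfe2l2, which encodes the factor Nrf2, and its known targets Nqo1, Gclc and Txnrd1. Among the 36 genes listed as targets, 3 were called higher, the genes named above, and 3 lower (median 0.09). The call of Gclc was kept in 5 of the 10 fits that leave out 1 library. Nfe2l2 measured 88.9, 105, 114, 102 and 107 CPM in Control and 89.1, 87.4, 87.5, 79 and 84.2 CPM with oxLDL + pNaKtide (-0.27, SE 0.07, BH-adjusted p = 0.0294). Its treated replicate 1, at 89.1 CPM, and Control replicate 1, at 88.9 CPM, crossed, and the call was lost without Control replicate 3 (BH-adjusted p = 0.103) or oxLDL + pNaKtide replicate 4 (BH-adjusted p = 0.118). Nqo1, a quinone reductase, fell by 0.31, a call lost without Control replicate 3 (BH-adjusted p = 0.112), Control replicate 5 (BH-adjusted p = 0.118) or oxLDL + pNaKtide replicate 1 (BH-adjusted p = 0.104). Without oxLDL + pNaKtide replicate 4 the list had 1 gene called higher and 1 lower, without Control replicate 3 it had 2 and 0, without Control replicate 5 it had 2 and 1, and without oxLDL + pNaKtide replicate 2 it had 6 and 3. With the GC and length trends removed it had 8 and 4.

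Few genes of protein handling were called, and the shares of all genes to set beside their counts are 2.04% called higher and 3.16% lower. Of 27 chaperones and sensors of the endoplasmic reticulum, 3 were called lower, the disulfide isomerase Pdia4 (-0.50, SE 0.09, BH-adjusted p = 0.00394), the chaperone Hyou1 (-0.35, SE 0.07, BH-adjusted p = 0.00751) and the sensor Eif2ak3 (-0.35, SE 0.11, BH-adjusted p = 0.0925). The call of Eif2ak3 was kept in 5 of the 10 fits that leave out 1 library and 7 of 14 alternative settings, and was lost with the GC and length trends removed (BH-adjusted p = 0.139). In that last setting 2 genes of the list were called higher and 3 lower, and without oxLDL + pNaKtide replicate 3, 5 were called lower. Pdia4 measured 296, 311, 391, 323 and 373 CPM in Control and 234, 234, 294, 217 and 219 CPM with oxLDL + pNaKtide, without overlap. The 23 amino acid genes under ATF4 had none called (median -0.01). Of 48 lysosome and autophagy genes, 5 were called lower, led by the collagen-degrading protease Ctsk at 28.5, 35.6, 28.9, 33.3 and 27.2 CPM in Control and 19, 20.3, 20.7, 23 and 14.3 CPM with oxLDL + pNaKtide (-0.67, SE 0.14, BH-adjusted p = 0.00952). Of the 48, 2 were called lower without Control replicate 3 or 5 or oxLDL + pNaKtide replicate 4, and with the GC and length trends removed 4 were higher and 2 lower. Of 53 ubiquitin E2 enzymes and HECT ligases, 4 E2 genes were called higher and 3 HECT ligases lower. Ube2c, the E2 of the mitotic ubiquitin ligase APC/C, measured 11.5, 12.4, 12, 12.1 and 13 CPM in Control and 15.9, 16.1, 17.5, 18.5 and 16.7 CPM with oxLDL + pNaKtide (0.47, SE 0.11, BH-adjusted p = 0.0135), without overlap, and Itch, a HECT ligase, fell by 0.56 with overlap, a call lost without oxLDL + pNaKtide replicate 4 (BH-adjusted p = 0.114). With single libraries left out 2 to 5 genes of this list were called higher and 0 to 4 lower, with 2 higher and 1 lower without Control replicate 3 or 5, 1 lower without Control replicate 1 and 0 lower without oxLDL + pNaKtide replicate 4. With the GC and length trends removed 8 were called higher and 1 lower. The 42 proteasome subunits had 1 gene called higher and 1 lower.

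Among regulators of transcription, Stat5a and Stat5b, which act in adipogenesis, were the genes called of 27 adipogenic factors, where 3.16% of all genes were called lower. Stat5b measured 69.9, 71.2, 71.7, 70.7 and 83.8 CPM in Control and 58.7, 56, 54.2, 59.3 and 61.1 CPM with oxLDL + pNaKtide (-0.34, SE 0.07, BH-adjusted p = 0.00952), and Stat5a changed by -0.36 (SE 0.09, BH-adjusted p = 0.0183), both without overlap. Dbp, an output factor of the circadian clock, was lower with oxLDL and higher with oxLDL + pNaKtide than Control, at 9.76, 14.2, 11.7, 14.3 and 13.9 CPM in Control, 8.96, 8.31, 8.77, 9.83 and 7.84 CPM with oxLDL and 14.9, 13.3, 18.1, 22.8 and 22.8 CPM with oxLDL + pNaKtide, with changes from Control of -0.55 (SE 0.14, BH-adjusted p = 0.00894) for oxLDL and 0.52 (SE 0.13, BH-adjusted p = 0.0262) for oxLDL + pNaKtide. Control and treated libraries overlapped at treated replicate 2. Of 19 circadian clock genes tested, 1 was called higher, Dbp, and 1 lower (median -0.08). Over all genes 2.04% were called higher and 3.16% lower. Cd44, the hyaluronan receptor (-0.43, SE 0.09, BH-adjusted p = 0.0103), H2-M3, a class I presentation molecule (-0.50, SE 0.12, BH-adjusted p = 0.0171), and Cald1, the actin-binding caldesmon (-0.45, SE 0.09, BH-adjusted p = 0.0054), were lower without overlap and were the only genes called in the lists for preadipocyte markers, class I presentation and contractile genes. These lists had 15, 17 and 29 genes tested, and of all genes 3.16% were called lower. Of 24 genes in the list for p53 targets, Plk2, the cyclin kinase inhibitor Cdkn1b and Sesn1 were called lower, each losing its call in at least 1 fit that leaves out 1 library. With the GC and length trends removed 6 of the list were called lower. Without Control replicate 1 or oxLDL + pNaKtide replicate 1, 4 or 5 this count was 1, and over all genes 3.16% were called lower. Among overshot increases, Ltc4s, the leukotriene C4 synthase, measured 16.5, 27.8, 22.6, 25.7 and 25.8 CPM in Control, 14.3, 14.8, 17.2, 18.9 and 13.5 CPM with oxLDL and 31.7, 30.3, 32.9, 45.4 and 44.1 CPM with oxLDL + pNaKtide, with changes from Control of -0.59 (SE 0.17, BH-adjusted p = 0.0128) for oxLDL and 0.63 (SE 0.16, BH-adjusted p = 0.0276) for oxLDL + pNaKtide, without overlap between oxLDL + pNaKtide and Control.

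**Figure D4:**
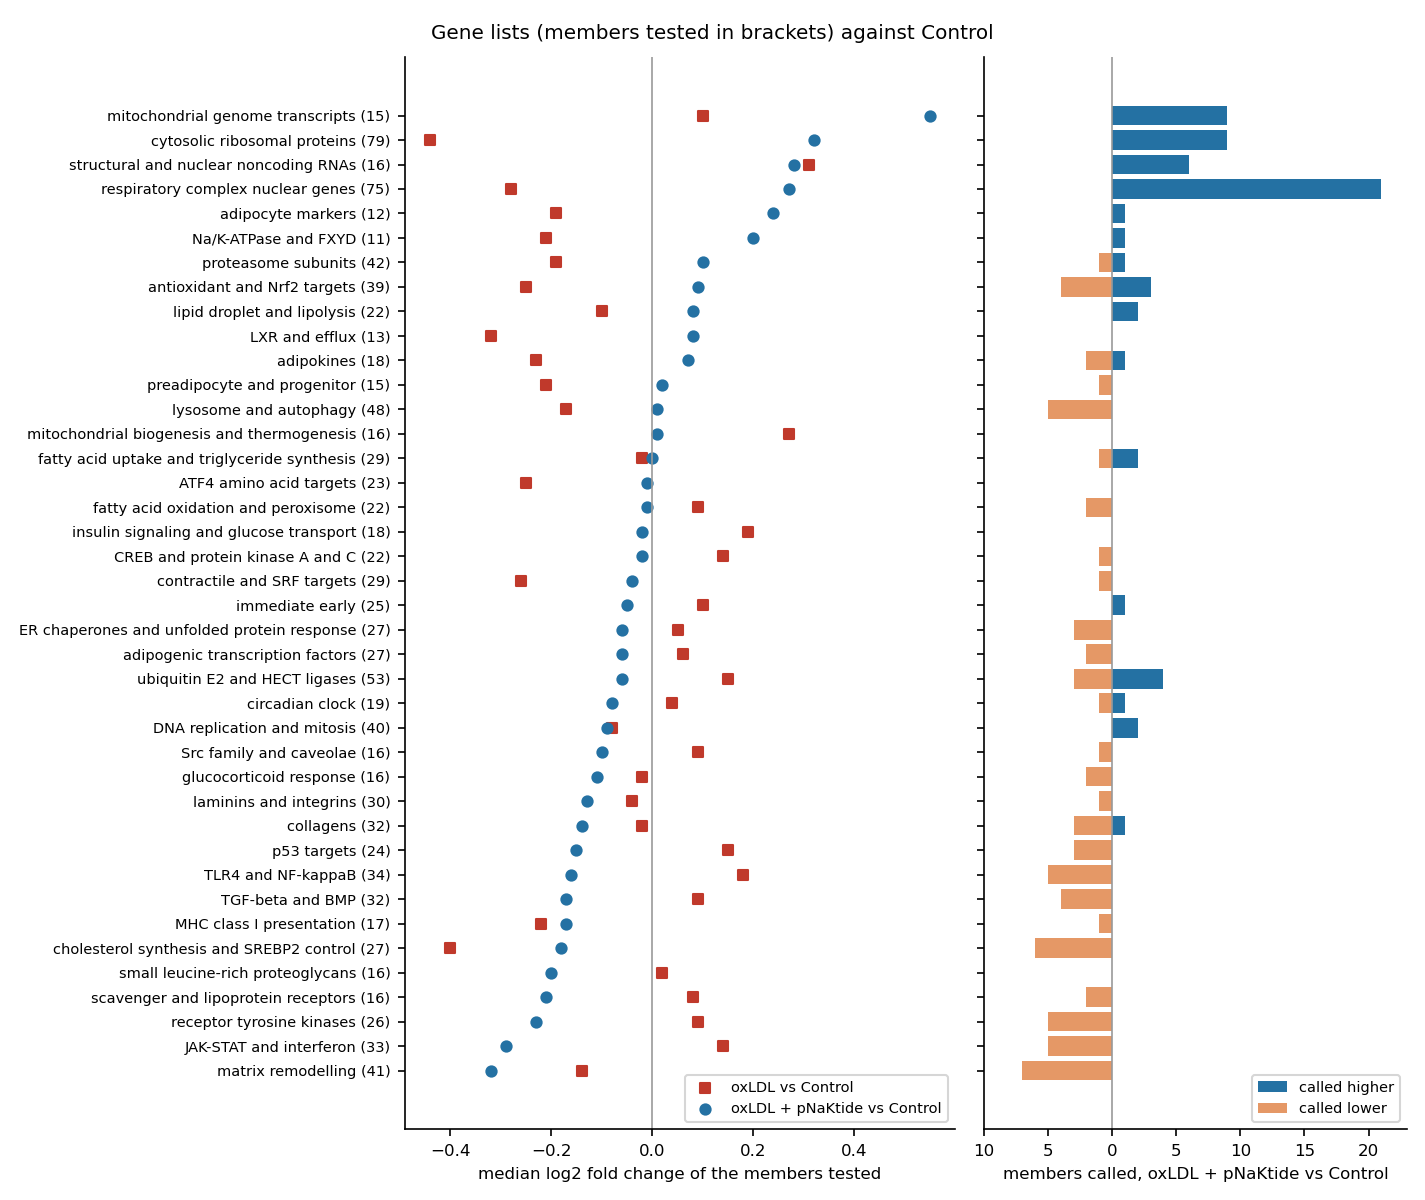
The left panel gives, for each gene list with 10 or more members tested, the median log2 fold change from Control with oxLDL + pNaKtide (circles) and with oxLDL (squares), and the right panel the number of members called higher or lower with oxLDL + pNaKtide. Mitochondrial genome transcripts (median 0.55) and matrix remodelling genes (median -0.32) lie at the ends.

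The largest increases among the named genes belonged to structural RNAs and rested largely on 1 library. Rn7sk, the 7SK RNA that binds the elongation factor P-TEFb, measured 211, 11.8, 20.2, 18.7 and 12.7 CPM with oxLDL + pNaKtide and 5.42, 8.46, 9.84, 11.4 and 7.66 CPM in Control. Replicate 1 stood far above the others of its group, and the change of 2.69 (SE 0.62, BH-adjusted p = 0.0191) became 0.91 (BH-adjusted p = 0.106) without it. Rn7s1, an RNA of the signal recognition particle, measured 608, 38.9, 55.2, 76.3 and 48 CPM against 23, 30.7, 27.5, 41.4 and 34.1 CPM in Control, and its change of 2.40 became 0.81 (BH-adjusted p = 0.232). The rRNA gene CT010467.1 measured 12000, 1410, 1740, 2100 and 1530 CPM against 803, 1250, 1220, 1410 and 1140 CPM, and 1.69 became 0.56 (BH-adjusted p = 0.24). Lars2, the mitochondrial leucyl-tRNA synthetase, behaved likewise, with 2710 CPM in replicate 1 against 397 to 530 CPM in the others and a change of 1.41 that became 0.43 (BH-adjusted p = 0.233). The calls of CT010467.1 and Lars2 were also lost without Control replicate 1, with BH-adjusted p of 0.106 and 0.113. Of 16 structural and nuclear noncoding RNAs tested, 6 were called higher, and 1 without oxLDL + pNaKtide replicate 1, where 2.04% of all genes were called higher. By biotype, 17 of 19 snRNA, 11 of 18 misc_RNA and 5 of 8 rRNA genes were called higher. Without oxLDL + pNaKtide replicate 1 these counts were 0, 1 and 0. With each other library left out in turn, 16 to 18 snRNA, 8 to 13 misc_RNA and 1 to 8 rRNA genes were called higher, the 1 rRNA gene without Control replicate 1, 3 without Control replicate 2, 3 or 5, and 8 without oxLDL + pNaKtide replicate 2. These RNAs are mostly not polyadenylated, and the part that the RNA or the library of replicate 1 has in these values was not tested.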

How the data were processed

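RNA from cultured 3T3-L1 cells was sequenced from mRNA libraries made with a stranded kit. The deposited table holds a raw count per gene and library for 54232 genes, made by the authors from 50-base reads aligned to GRCm38 with HISAT2 2.1.0 after trimming with Trimmomatic 0.38. The authors also deposited an FPKM table, used here in an alternative setting, and counts normalized with DESeq2 1.20.0, which were not used. Reads per gene were counted by the authors with GenomicAlignments. No source used here gives its strand setting or annotation release. The members and gene lists were chosen with earlier results of these data known.

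Counts over 14 in sum across 30 libraries left 20139 genes. They were fitted with edgeR 4.0.16 in R 4.3.3, as a robust quasi-likelihood model with TMM normalization over 6 groups of 5 libraries, so all groups shared the estimate of the spread (common biological coefficient of variation 14%). P-values were adjusted by the Benjamini-Hochberg method over all genes, with a threshold of 0.1. The fit was tested on simulated data. Genes were named if they were among the 12 largest changes per direction, or the 5 largest per class and direction, among called genes with mean log2 CPM of at least 1 and no overlap between groups. Up to 3 members per list and direction with the smallest adjusted p, and a list fixed by name, were added. Other called list members are mentioned where a count of 5 or fewer, or a list described in full, turns on them, and these were picked after their values were seen. Gene coordinates are those of GENCODE on GRCm38. Alternatives used DESeq2 1.42.0, limma 3.58.1 on log2(FPKM + 1), limited to genes averaging 0.5 FPKM or more, and mgcv 1.9.3 for the trends over GC content and length. No pair of libraries within a group agreed within sampling noise (lowest chi-square per degree of freedom 1.76 over 20 pairs). Results for some genes are not reported here.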

Additional observations from a re-analysis of the deposited data

Results flagged for a closer look

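Of 274 groups of 5 values looked at, 35 (12.8%) had 1 library beyond Dixon's 95% critical value of 0.71, where chance gives about 1 in 20. Control replicate 1 held 7 of these, and oxLDL + pNaKtide replicates 1 and 4 held 10 and 7.

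In the Control group, replicate 1 was the highest library for Gm4951 (3.69 CPM), Col12a1 (49.6 CPM), Frk (10.1 CPM), Lox (241 CPM) and Adamts1 (355 CPM), and the lowest for Dgat1 (265 CPM). Its slope of log2 counts over gene length was 0.127, against -0.062 to -0.028 in the 4 others. Control replicate 5 was apart for Stat5b (83.8 CPM) and Control replicate 3 for Ndufab1 (81.8 CPM).

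In the oxLDL + pNaKtide group, replicate 1 was the highest for Rn7sk (211 CPM), Rn7s1 (608 CPM), CT010467.1 (12000 CPM), Gm26917 (1420 CPM), Gm26315 (125 CPM), Gm24447 (130 CPM), Lars2 (2710 CPM), mt-Rnr1 (1310 CPM) and Gclc (17.6 CPM), and for the share of counts on rRNA and misc_RNA genes (1.28%). Replicate 4 was the highest for Rpl6 (992 CPM), Rps12 (122 CPM), Rps13 (369 CPM), Rps2-ps6 (187 CPM), Gsta4 (70.9 CPM) and Nqo1 (22.3 CPM), and the lowest for Vldlr (79.6 CPM). Replicate 3 was the highest for Pdia4 (294 CPM), Hyou1 (142 CPM), Pex5 (159 CPM), Atg16l1 (59.7 CPM), Ndufab1 (113 CPM), Mpc2 (231 CPM) and Hnrnpa0 (78.5 CPM). Replicate 5 was the highest for Pxmp2 (14.1 CPM) and the only library with a count for Il6 (0.101 CPM).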

How the results depend on the processing

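The direction of the 116 called genes taken by the naming rule was the same in all alternatives that gave a value, and 60 of them were called in all 10 fits that leave out 1 library. Counts moved more. DESeq2 called 1821 genes (937 higher, 139 retained, 775 overshot), and scaling by library size alone called 1968 (1586 lower, 128 retained, 614 overshot, 1118 new). edgeR's own expression filter gave 806 higher, 115 retained and 601 overshot, over 14 counts in every library gave 1660 (820 higher, 123 retained, 697 overshot), and at least 1 count gave 660 (249 higher, 411 lower, 22 retained, 158 overshot). limma on log2(FPKM + 1) called 1631 (838 higher, 136 retained, 590 overshot). Without the trends over GC content and length there were 1923 (1035 higher, 132 retained, 1238 new), and of the retained and overshot genes reported 19 and 82 were in the same class. At an adjusted p of 0.05 there were 590 (216 higher, 374 lower, 23 retained, 81 overshot). The 10 libraries fitted alone gave 11 (2 higher, 9 lower). Alternatives chosen after seeing the data were thinning (985), leaving out structural and mitochondrial RNAs (973), and leaving out both replicates numbered 1, which gave 528 (162 higher, 366 lower, 106 retained, 82 overshot, 328 new). The cause of these movements was not tested. Leaving out 1 library at a time gave 505 to 1300 genes, 228 to 676 higher, 277 to 736 lower, 24 to 178 retained, 67 to 485 overshot and 365 to 907 new.

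Replicate numbers are shared between groups, but nothing ties equal numbers to 1 culture or day, and the deviations of same-numbered libraries correlated at 0.34, -0.41, 0.26, 0.66 and 0.10, so they were not taken as pairs. With the replicate block, 1653 genes were called (722 higher, 727 overshot).

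At 6945498 or more counts per library, genes such as Il6 with 1 or 2 counts in a group allow no comparison.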
